A study of Mus musculus with 6 samples.

Results

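The genes described here encode the subunits of the receptors for GABA, glycine and glutamate. They were the rows of the authors' normalized table whose gene name is that of a receptor subunit, which gave 45 of 18065 genes: 15 subunits of GABA-A receptors (rho subunits included), 2 of GABA-B, 3 of glycine, 4 of AMPA, 5 of kainate, 2 of delta and 7 of NMDA receptors, and 7 metabotropic glutamate receptors. The name pattern found 46 rows, of which 1, a gene for a scaffold protein, was dropped. A further 7 subunits (Gabra6, Gabrd, Gabrp, Gabrr1, Glra1, Glra4 and Grm6) stood in the raw table alone, with at most 9 reads in any library.

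RNA was sequenced from E11.5 embryos of C57BL/6 mice. Cells of the telencephalon that carried a tdTomato reporter were sorted by flow cytometry, and the labels give their tissue as medial ganglionic eminence (MGE), the part of the ventral forebrain in which many cortical interneurons are born. The 4 control libraries have the genotype Nkx2.1-Cre;ROSAloxSTOPloxTdTomato, in which Cre from the Nkx2.1 driver removes a stop cassette before tdTomato at the ROSA locus. The 2 heterozygous libraries have the genotype Magoh lox/+; Nkx2.1-Cre; ROSAloxSTOPloxTdTomato, so that Cre also acts on a floxed allele of Magoh, which encodes part of the exon junction complex left on spliced mRNAs, and the other Magoh allele is intact. Cre and reporter are shared by all 6 libraries. The floxed allele can be lost only in cells in which the Nkx2.1 driver is or was active. The labels do not say whether a library is 1 embryo or a pool, so a p-value here covers the spread between libraries, which may be technical.

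GABA-A and glycine receptors are pentameric chloride channels, and GABA-B receptors are G-protein-coupled dimers. AMPA, kainate and NMDA receptors are tetrameric cation channels gated by glutamate, while the metabotropic receptors signal through G proteins. In the embryonic forebrain these receptors appear before synapses form. There GABA and glycine usually depolarise the young neuron, and ambient transmitter is known to act on the proliferation and migration of cells.

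The libraries held 37.4 to 49.2 M counts each (M, 1000000 counts). Levels are in CPM, counts per 1000000 counts of the tested genes in a library, with that total scaled by the TMM factor. On this scale 3 reads, the most that a count of 0 allows, are 0.0610 to 0.0835 CPM. No read of 4 Y-linked genes was found in control 2 or heterozygous library 1, against 3453 to 4291 reads in the other 4 libraries. In the same 2 libraries transcripts of at least 8000 nt stood lower against those under 1000 nt (-0.78 and -0.34 log2 units, against 0.14 to 0.47), so that sex and transcript length cannot be told apart between libraries. Receptor genes are long (median exon length 6542 nt, against 4077 nt for tested genes), and 14 of the 45 have at least 8000 nt. Differences are therefore also plotted, and for some genes given in the text, within the 2 subsets of libraries: heterozygous library 1 against control 2, and heterozygous library 2 against controls 1, 3 and 4. Magoh stood at 68.1, 118, 63.7 and 74.3 CPM in controls 1 to 4 and at 57.1 and 48.6 CPM in the heterozygous libraries, below every control, without passing the test (edgeR's quasi-likelihood test with Benjamini-Hochberg adjustment, log2 fold change -0.62 ± 0.28 (SE), adjusted p = 0.850). Nkx2-1, the gene of the Cre driver, stood at 454, 376, 562 and 339 CPM in controls and 349 and 466 CPM in heterozygous cells. In bulk RNA, fewer cells of a type and less RNA per cell cannot be told apart.

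Of 12 neuron marker genes 0 passed edgeR, and 6 had an unadjusted p under 0.05, all higher in heterozygous cells (1.75% of all tested genes). All 12 had a log2 fold change above 0 (median 0.54). For 7 of them (58.3%, against 6.17% of all tested genes) both heterozygous libraries lay above every control, and for the other 5 the groups overlapped. The summed level of the list was 2346 to 3502 CPM in controls and 3969 and 4756 CPM in the heterozygous libraries. Progenitor markers had a median of -0.23 over 10 genes, with sums of 3449 to 6083 CPM in controls and 3548 and 4206 CPM in heterozygous cells. Of the 10, 4 were above 0 and 6 below. At an unadjusted p under 0.05 in edgeR 0 were higher and 2, Hes1 and Top2a, lower (3.98% of all tested genes). Both heterozygous libraries lay below every control for 1, Hes1 (8.14% of all tested genes). The 11 MGE interneuron markers, among them Lhx6, Dlx2 and Maf, had a summed level from 527 to 997 CPM in controls, and of 851 and 1773 CPM in the heterozygous libraries. Of the 11, 10 had a log2 fold change above 0 and 1, Maf, below 0 (-1.96). At an unadjusted p under 0.05 in edgeR 2 were higher and 1 lower (1.75% and 3.98% of all tested genes). Both heterozygous libraries lay above every control for 2 (18.2%, against 6.17% of all tested genes) and below for 1, Maf (8.14%). For 6 markers of pallial glutamatergic neurons the sums were 12.7 to 21.6 CPM, and 24.5 and 25.9 CPM. Blood markers summed to 16.9 to 67.9 CPM in controls and to 198.5 and 0.0814 CPM in heterozygous cells, microglia markers to 2.17 to 88.5 CPM and to 11.6 and 0.183 CPM, and mesenchyme markers to 114.0 to 203.8 CPM and to 186 and 68.1 CPM. The part of these cell types in the receptor values was not tested.

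The 3 receptor genes with the highest mean level in controls were the kainate subunits Grik5 and Grik3 and the GABA-B subunit Gabbr1. Genes were compared per kilobase of exon (kb), where the length is the union of annotated exons and not that of the transcript made. The order of genes on this scale depends on that length. Grik5 stood at 30.8 CPM per kb in the mean of the controls, higher than 90.2% of tested genes. Gabbr1 stood at 16.9 CPM per kb (81.6%) and Grik3 at 10.8 (72.9%). The metabotropic receptor Grm4 stood at 4.27 CPM per kb and the kainate subunit Grik2 at 2.02. Grik5 was the highest of the receptor genes in all 6 libraries, and Grik3 stood above Gabbr1 in heterozygous library 2 alone. On the scale not divided by length, the mean over the 6 libraries reached 1 CPM for 28 of the 45 genes and 10 CPM for 8. Most receptor genes were thus far below the few at the top, and for the lowest, Gabrr3, the mean was 0.129 CPM.

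**Figure D1:**
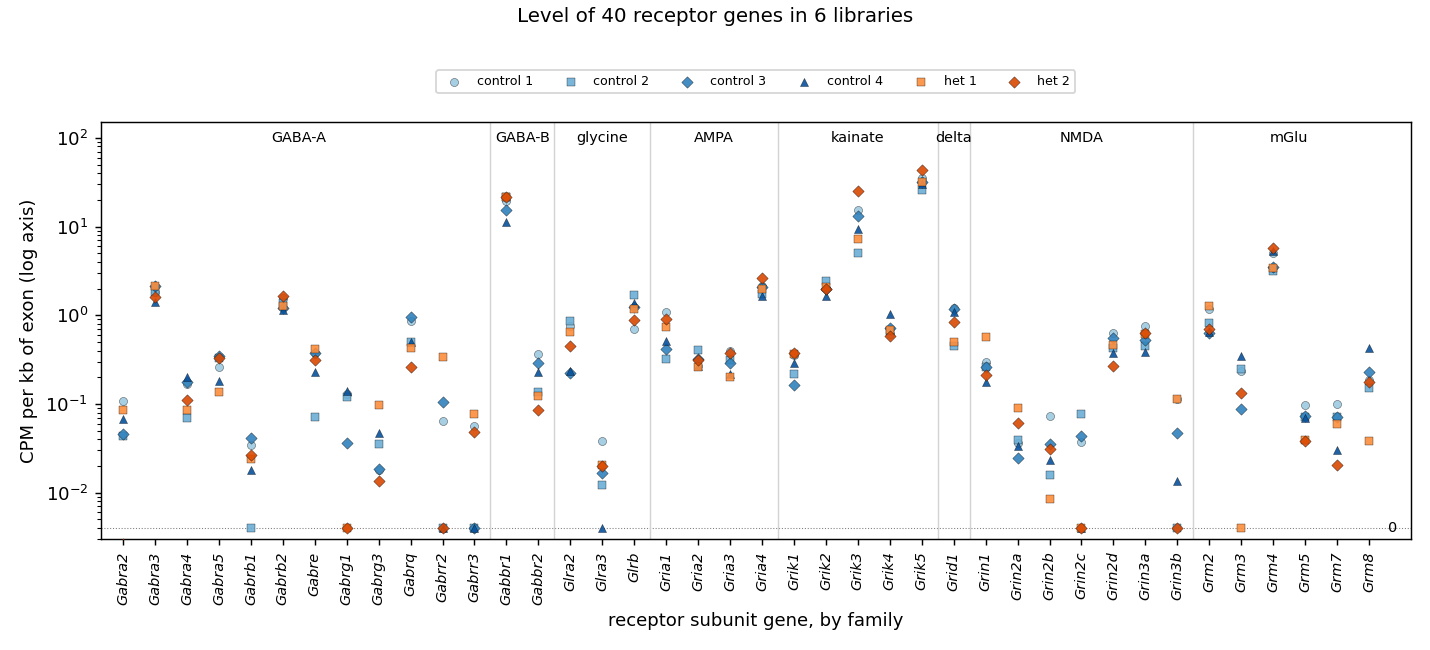
Level of 40 receptor genes, in CPM per kb of exon on a log axis, with genes grouped by family along the x axis and 1 point per library; points on the dotted line are counts of 0. Grik5 is the highest gene in all 6 libraries, and Gabrg1 has all 4 controls above 0 and both heterozygous libraries at 0.

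Promoter sequences were set beside these levels. RefSeq (GRCm38.p6) entries were found for 36 of the 52 subunit genes of the raw table, and the 250 bases before the most upstream listed start were read for each. Of the 43 listed starts of these genes, 32 had the bases just after the start in a GENCODE transcript of the gene. The windows of Gabrb2, Glra4 and Grin2d lie inside the gene as annotated in GENCODE. A listed start may thus not be the one used in these cells. Windows are printed for 4 genes, those of the 3 highest genes and of Gabrg1, whose heterozygous libraries had no read, in lower case with each CG pair in capitals, 5′ to 3′ on the strand of the gene.
Grik5, chr7:25072370-25072619, minus strand: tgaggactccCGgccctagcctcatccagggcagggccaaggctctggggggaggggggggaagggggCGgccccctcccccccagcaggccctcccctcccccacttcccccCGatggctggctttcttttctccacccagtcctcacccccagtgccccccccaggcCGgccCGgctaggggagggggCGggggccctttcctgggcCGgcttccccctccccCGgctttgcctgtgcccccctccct
Grik3, chr4:125490446-125490695, plus strand: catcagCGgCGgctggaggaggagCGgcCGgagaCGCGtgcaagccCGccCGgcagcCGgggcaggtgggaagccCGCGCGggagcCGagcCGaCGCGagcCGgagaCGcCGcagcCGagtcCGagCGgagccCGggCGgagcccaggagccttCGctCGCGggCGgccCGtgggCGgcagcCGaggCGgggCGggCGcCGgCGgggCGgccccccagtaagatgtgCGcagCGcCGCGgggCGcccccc
Gabbr1, chr17:37045716-37045965, plus strand: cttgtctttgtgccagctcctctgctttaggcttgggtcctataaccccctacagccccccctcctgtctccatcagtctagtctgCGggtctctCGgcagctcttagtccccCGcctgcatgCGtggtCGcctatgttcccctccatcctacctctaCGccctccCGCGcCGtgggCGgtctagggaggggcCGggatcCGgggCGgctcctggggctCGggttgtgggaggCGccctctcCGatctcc
Gabrg1, chr5:70842618-70842867, minus strand: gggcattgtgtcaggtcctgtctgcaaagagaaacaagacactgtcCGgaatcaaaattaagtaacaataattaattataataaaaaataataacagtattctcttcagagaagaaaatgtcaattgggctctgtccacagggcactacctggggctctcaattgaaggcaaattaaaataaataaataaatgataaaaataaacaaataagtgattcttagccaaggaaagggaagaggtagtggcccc
The window of Grik3 held 42 CG pairs, that of Gabbr1 16, that of Grik5 8 and that of Gabrg1 1, where the median over 27025 genes was 6.

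Among the subunit genes, CG pairs were fewest before the genes with the lowest levels. The 14 genes below 0.1 CPM per kb in controls had a median of 4 CG pairs (1 to 18). The 14 genes from 0.1 to 1 CPM per kb had a median of 17.5 (1 to 37), and the 8 genes at 1 CPM per kb or more had 16 (0 to 42). Both groups at 0.1 CPM per kb or more covered wide ranges, and Gabra3, at 1.8 CPM per kb, had no CG pair in its window. The letters GGGCGG, on either strand and holding a CG pair themselves, were found in 20 of the 36 windows and in 33.0% of all genes' windows of this length. TATAAA, on either strand, was found in 4 of 36 and in 13.0% of all. A match describes the letters of the window and was not tested as a binding site.

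**Figure D2:**
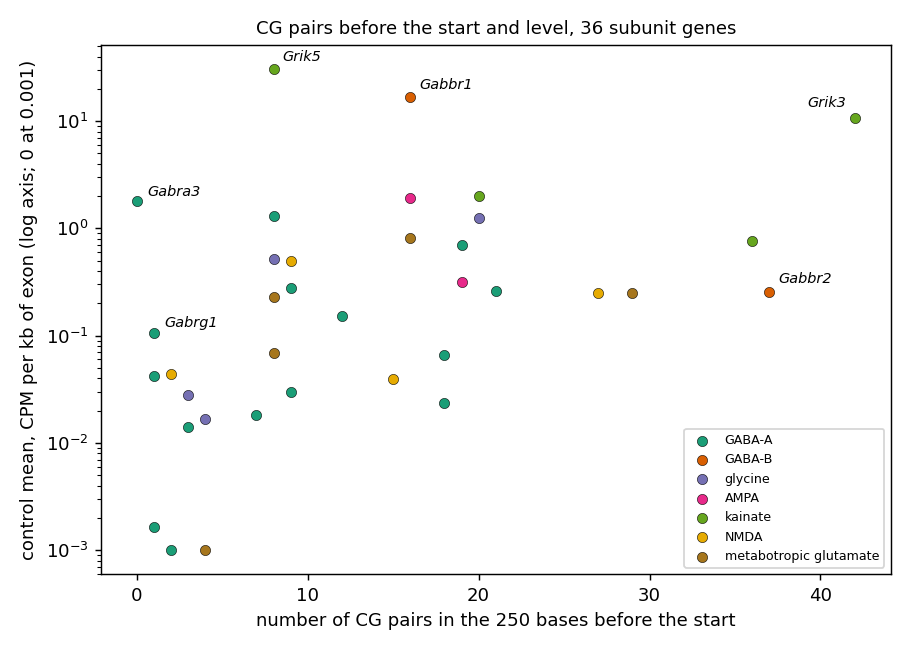
Number of CG pairs in the 250 bases before the start (x axis) against the control mean in CPM per kb of exon (log y axis) for 36 subunit genes, coloured by family, with a level of 0 drawn at 0.001. Grik3 lies at 42 CG pairs and Gabrg1 at 1, while Gabra3 holds 0 CG pairs at a level above 1.

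Between the genotypes no receptor gene passed the test across all genes. Of the 45 genes, 42 could be tested (Gabrr2, Glra3 and Grin2c had too few reads), and 0 passed edgeR, as did 0 of all 16495 tested genes (0%). An unadjusted p under 0.05 was found for 4 of the 42 (9.52%), against 5.72% of all tested genes: 3 were lower in heterozygous cells (Gabrg1, Gabrq and Gabbr2; 3.98% of all tested genes) and 1 was higher (Grin2a; 1.75%). DESeq2 called 1 receptor gene, Gabrg1, among 74 genes called in all (0.468%), and limma-voom called 0 (0% of all genes). For 7 of the 42 (16.7%) the groups did not overlap, a share near the 14.3% of all tested genes. Of the 7, 3 had both heterozygous values above the controls (6.17% of all tested genes) and 4 had them below (8.14%). The counts at an unadjusted p under 0.05, the counts without overlap and the DESeq2 call include Gabrg1. That gene passed the filter on low counts through the controls alone, so its place in them is no support for a difference.

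As a list the receptor genes were spread around 0. A log2 fold change above 0 was found for 24 of the 42 (57.1%), against 46.1% of tested genes, with a median of 0.09 against -0.03 over all tested genes. The median was 0.14 for heterozygous library 1 against control 2 and -0.18 for heterozygous library 2 against controls 1, 3 and 4. The members also differed between controls. In control 1 the 28 genes whose mean reached 1 CPM stood at a median of 0.32 log2 units above the control mean, and in control 4 at -0.20, while the heterozygous libraries stood at 0.06 and 0.03. Control 1 was therefore the library with the highest receptor levels by this measure. Among controls the neuron marker sum was also highest in control 1 (3502 CPM) and lowest in control 4 (2346 CPM). Control 2 had a higher sum than control 3 (3139 and 2746 CPM) but a lower receptor median (-0.141 and -0.006). The heterozygous libraries had the highest neuron marker sums (3969 and 4756 CPM), with receptor medians below that of control 1. The part of neuron content in these medians was not tested.

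**Figure D3:**
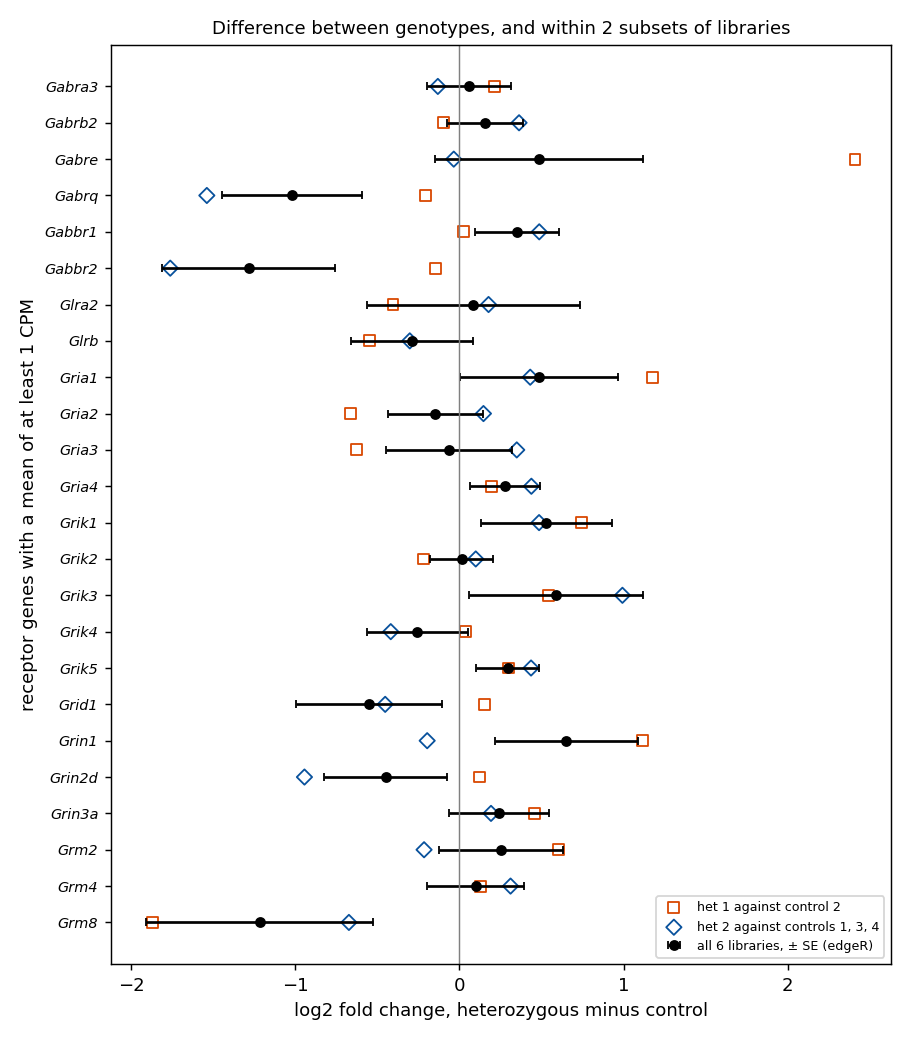
Log2 fold change, heterozygous minus control (x axis), of 24 receptor genes whose mean reached 1 CPM: black points with bars are the fit over all 6 libraries ± SE, open squares heterozygous library 1 against control 2, open diamonds heterozygous library 2 against controls 1, 3 and 4. For Gabrq and Gabbr2 the diamonds lie further from 0 than the squares, and for Gabre the square lies at 2.41.

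Many GABA-A genes lie in clusters. On chromosome 5, Gabrg1, Gabra2, Gabra4 and Gabrb1 made up 0.852 ± 0.447%, 0.530 ± 0.229%, 1.29 ± 0.660% and 0.194 ± 0.147% of the summed GABA-A level per kb in controls (SD, n = 4). On chromosome 7, Gabra5 made up 2.19 ± 0.527% and Gabrg3 0.246 ± 0.156%. On chromosome 11, Gabrb2, a beta subunit, made up 10.4 ± 1.11%, while Gabra6, a subunit of cerebellar granule cells, had 0 reads. The X-chromosomal Gabra3, an alpha subunit of the embryonic brain, made up 14.3 ± 2.56% and Gabrq (theta) 5.6 ± 2.0%. Gabra3 and Gabrb2 were thus far above the 4 genes of the chromosome 5 cluster.

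For Gabra3 and Gabrb2 the genotypes overlapped. Gabra3 stood at 7.18, 7.24, 8.33 and 5.55 CPM in controls 1 to 4 and at 8.39 and 6.35 CPM in heterozygous libraries 1 and 2 (log2 fold change 0.06 ± 0.26, SE). For Gabrb2 the values were 9.89, 8.65, 7.65 and 7.27 CPM in controls and 8.09 and 10.5 CPM in heterozygous cells (0.16 ± 0.23). Heterozygous library 1 exceeded the controls for Gabra3, and heterozygous library 2 did so for Gabrb2, with the other library in the control range. Gabre, the epsilon subunit, stood at 1.77, 0.334, 1.77 and 1.07 CPM in controls and 1.98 and 1.49 CPM in heterozygous cells (0.48 ± 0.64), with control 2 lowest.

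Gabrg1 had no read in either heterozygous library. The gene (ENSMUSG00000001260; chromosome 5, 70751047 to 70842617, minus strand, GRCm38) encodes the gamma1 subunit, found in the receptors of some brain regions. It had 38, 34, 13 and 49 reads in controls 1 to 4 (1.02, 0.946, 0.287 and 1.1 CPM) and 0 reads in heterozygous library 1 and in library 2. The control mean of 0.837 ± 0.372 CPM (SD, n = 4) was 11.8-fold the level of 3 reads in a heterozygous library (0.0707 CPM, the higher floor of the 2). The lowest control, control 3, was 4.06-fold that floor. It had an unadjusted p of 0.00105 and an adjusted p of 0.793 in edgeR. Over 15 alternatives the adjusted p ran from 0.00723, in DESeq2, to 1.0. Of the 42 tested members 1, Gabrg1, passed the filter on low counts through the controls alone. It was tested only because its control values were high, so these p-values are no support for a difference.

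The heterozygous libraries had reads for 17139 and 17078 genes, and the controls for 18034 to 19071. Of 717 tested genes with a control mean within 1.25-fold of that of Gabrg1 (0.670 to 1.05 CPM), 6.83% and 7.25% had 0 reads in heterozygous libraries 1 and 2. These genes were chosen by their control mean, which leaves little room for a count of 0 in a control, so the same share in controls is no comparison. Both heterozygous libraries had 0 reads for 9 of them (1.26%), and over all tested genes for 233, of which 5 had a control mean at or above that of Gabrg1. The part of the lower number of detected genes in the Gabrg1 result was not tested. The neighbours of Gabrg1 in the chromosome 5 cluster, named after their values were seen, had reads in heterozygous cells. Gabra2 had 31, 12, 16 and 23 reads in controls and 28 and 1 reads in the heterozygous libraries. Gabra4 had 38, 15, 49 and 55 reads and 22 and 33 reads, and Gabrb1, whose exons overlap those of Gabra4 on the other strand, 18, 0, 26 and 11 reads and 14 and 18 reads. Heterozygous library 2 was thus low for Gabra2 as well, at 1 read, whereas for Gabra4 and Gabrb1 both heterozygous libraries fell within the control range.

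Gabrq was below every control in each heterozygous library. Gabrq (ENSMUSG00000031344; chromosome X, 72825178 to 72842602, plus strand) stood at 4.61, 2.67, 5.11 and 2.66 CPM in controls 1 to 4 and at 2.31 and 1.4 CPM in heterozygous libraries 1 and 2. The groups did not overlap, but controls 2 and 4 lay close to heterozygous library 1. The log2 fold change was -1.02 ± 0.43 (SE; edgeR, adjusted p = 0.850), with -0.21 for heterozygous library 1 against control 2 and -1.54 for library 2 against controls 1, 3 and 4. Its unadjusted p was 0.0445 and exceeded 0.05 in 6 of 16 alternatives. As a share of the GABA-A level per kb it was 5.6 ± 2.0% in controls (SD, n = 4) and 2.35 ± 0.577% in heterozygous cells (SD, n = 2).

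The GABA-B receptor needs Gabbr1, which binds GABA, and Gabbr2, which couples to the G protein and brings the dimer to the cell surface. Their messages were unequal: Gabbr1 made up 98.4 ± 0.629% of their summed level per kb in controls (SD, n = 4). Gabbr1 (ENSMUSG00000024462; chromosome 17, 37045966 to 37075067) stood at 153, 166, 121 and 86.8 CPM in controls and 169 and 167 CPM in heterozygous cells. Both heterozygous libraries were above the controls, by little over control 2 (log2 fold change 0.35 ± 0.26, SE; edgeR, adjusted p = 0.966).

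Gabbr2 went the other way (ENSMUSG00000039809; chromosome 4, 46662305 to 46991873, minus strand). It stood at 2.41, 0.918, 1.92 and 1.54 CPM in controls 1 to 4 and at 0.825 and 0.570 CPM in heterozygous libraries 1 and 2. Control 2, at 0.918 CPM, was the control nearest to them. The log2 fold change was -1.28 ± 0.53 (SE; edgeR, adjusted p = 0.850), and it was -0.15 for heterozygous library 1 against control 2 and -1.76 for library 2 against the other controls. The difference was thus larger among the libraries with Y-linked reads. Its unadjusted p was 0.0415 and exceeded 0.05 in 8 of 16 alternatives. The share of Gabbr2 in the pair was 1.57 ± 0.629% in controls and 0.480 ± 0.120% in heterozygous cells, and the groups did not overlap.

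Of the glycine receptor genes, Glrb, the beta subunit that binds the scaffold gephyrin, and Glra2, the alpha subunit typical of the embryonic brain, held nearly all of the level per kb, with 68.5 ± 18.0% and 27.5 ± 16.9% in controls. Glrb stood at 3.27, 7.96, 5.72 and 6.4 CPM in controls and 5.42 and 4.13 CPM in heterozygous cells (-0.29 ± 0.37, log2 fold change, SE). Glra2 stood at 2.39, 2.7, 0.707 and 0.738 CPM and at 2.03 and 1.42 CPM (0.08 ± 0.65). Controls 1 and 2 had the highest Glra2 values and controls 3 and 4 the lowest, so that the controls spanned the heterozygous libraries. Glra3 had at most 13 reads, Glra1 9 and Glra4 8 in a library.

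**Figure D4:**
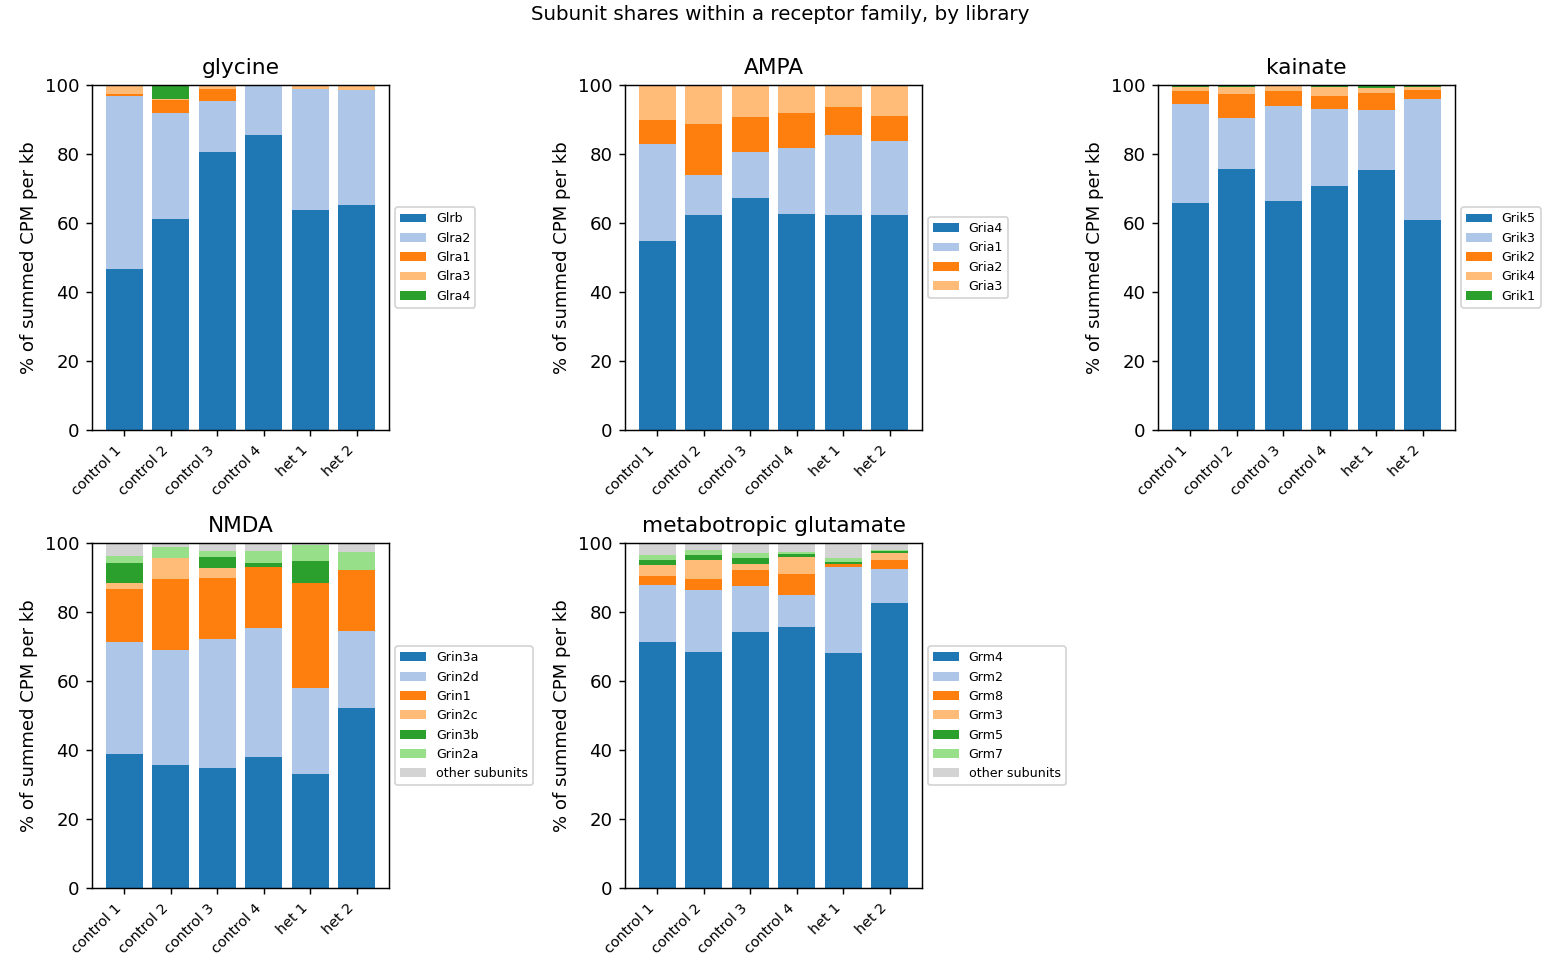
Share of each subunit in the summed level per kb of its receptor family (y axis, %), with 1 bar per library and 1 panel for each of 5 families; up to 6 subunits are coloured and others are grey. Gria4, Grik5 and Grm4 hold the largest share of their family in all 6 libraries, while Glrb and Glra2 change rank in control 1.

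Among AMPA receptor genes Gria4 led with 61.7 ± 5.11% of the family level per kb in controls (SD, n = 4), followed by Gria1 (18.1 ± 7.48%), Gria2 (10.5 ± 3.25%) and Gria3 (9.71 ± 1.35%). Gria2, whose edited subunit keeps AMPA channels from passing calcium, ranked below Gria1 on this scale, with a union exon length of 15548 nt. Not divided by length, its share was 21.4%, second after Gria4 and above Gria1 (14.6%). Gria4 stood at 13.4, 10.9, 13.2 and 10.5 CPM in controls and 12.5 and 16.6 CPM in heterozygous cells (0.28 ± 0.22, log2 fold change, SE). Gria1 stood at 6.6, 1.95, 2.5 and 3.09 CPM and 4.46 and 5.41 CPM (0.48 ± 0.48). Control 1 was the highest library for Gria1 and heterozygous library 2 for Gria4. Gria2 stood at 4.16, 6.37, 4.95 and 4.18 CPM in controls and 4.01 and 4.86 CPM in heterozygous cells (-0.15 ± 0.29), and Gria3 at 3.86, 3.09, 2.87 and 2.13 CPM and 1.98 and 3.72 CPM (-0.06 ± 0.38). In all 4 genes the groups overlapped.

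Kainate receptors had the highest summed level of the 8 families, at 44.6 ± 8.26 CPM per kb in controls (SD, n = 4) and 56.9 ± 20.5 in heterozygous cells (SD, n = 2). The GABA-B genes followed with 17.2 ± 4.53 and GABA-A genes with 12.8 ± 2.35 in controls. AMPA genes summed to 3.11 ± 0.548 and NMDA genes to 1.43 ± 0.402 CPM per kb. Grik5, the high-affinity subunit that needs a partner such as Grik2 to form a channel, made up 69.7 ± 4.63% of the kainate level, Grik3, a low-affinity subunit that can form channels alone, 23.3 ± 6.41%, and Grik2 4.7 ± 1.55% (9.68% when not divided by length).

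Grik5 varied little and Grik3 widely between libraries. Grik5 (ENSMUSG00000003378; chromosome 7, 25009849 to 25072346, minus strand) stood at 183, 135, 165 and 155 CPM in controls and 166 and 225 CPM in heterozygous libraries 1 and 2 (0.29 ± 0.19, log2 fold change, SE; edgeR, adjusted p = 0.946). Grik3 (ENSMUSG00000001985; chromosome 4, 125490700 to 125714173, plus strand) stood at 138, 45.1, 119 and 84.1 CPM in controls and 65.6 and 224 CPM in heterozygous cells (0.59 ± 0.53; edgeR, adjusted p = 0.998). The control coefficient of variation was 12.6% for Grik5 and 42.3% for Grik3. Heterozygous library 2 was the highest of the 6 for both genes, while heterozygous library 1 lay within the controls. Leaving out heterozygous library 2 turned the Grik3 difference to -0.56 log2 units, and leaving out library 1 raised it to 1.23. The 2 lowest Grik3 values were those of the libraries without Y-linked reads.

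Grik2 stood at 26.8, 31.9, 26.4 and 21.6 CPM in controls and 27.4 and 26.5 CPM in heterozygous cells (0.01 ± 0.19, log2 fold change, SE), with every heterozygous value inside the control range. Grik1 stood at 2.39, 1.45, 1.11 and 1.92 CPM and 2.45 and 2.5 CPM (0.53 ± 0.40), both heterozygous libraries just above control 1. Grik4, the other high-affinity subunit, stood at 3.62, 3.98, 4.33 and 6.11 CPM and 4.08 and 3.48 CPM (-0.26 ± 0.31). None of the 5 kainate genes had an unadjusted p under 0.05 in the fit of all 6 libraries. With Y-linked expression as a covariate, Grik3 had a log2 fold change of 0.84 ± 0.20 (SE; edgeR, unadjusted p = 0.00305) and Grik5 of 0.38 ± 0.11 (unadjusted p = 0.00933), and among the libraries with Y-linked reads alone the unadjusted p was 0.00487 for Grik3 and 0.0143 for Grik5. Grik5 had an unadjusted p of 0.0416 with length and GC trends removed, and Grik3 of 0.0442 without heterozygous library 1. Over the 16 alternatives with a test the lowest adjusted p was 0.167 for Grik3 and 0.190 for Grik5.

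Of the delta receptor genes, whose products bind cerebellins, Grid1 stood at 7.24, 2.67, 6.96 and 6.53 CPM in controls and 2.97 and 5.0 CPM in heterozygous cells (-0.55 ± 0.45, log2 fold change, SE). Control 2 and heterozygous library 1, the libraries without Y-linked reads, were the lowest 2.

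NMDA receptors need Grin1, whose product binds glycine and is part of every NMDA channel, with Grin2 subunits that bind glutamate. Grin1 was low: 17.7 ± 2.2% of the NMDA level per kb in controls, less than Grin3a, a glycine-binding subunit of the developing brain (36.9 ± 2.01%), and Grin2d, a subunit of embryonic and interneuron receptors (35.2 ± 2.69%). Grin2b, the main Grin2 subunit of later embryonic forebrain, made up 2.43 ± 1.03%, on a union exon length of 24842 nt, and 6.10% when not divided by length. Grin3a stood at 9.36, 5.54, 6.39 and 4.72 CPM in controls and 7.61 and 7.71 CPM in heterozygous cells (0.24 ± 0.31, log2 fold change, SE). Grin1 stood at 2.9, 2.53, 2.54 and 1.7 CPM and 5.54 and 2.06 CPM (0.65 ± 0.44). Heterozygous library 1 alone exceeded the controls for Grin1. Grin3b, with its exons overlapping those of Tmem259 (3766 to 4723 reads) on the other strand, is left as uncertain, since the counting may not have used strand.

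Grin2d stood at 4.21, 2.81, 3.74 and 2.51 CPM in controls and 3.06 and 1.79 CPM in heterozygous cells (-0.45 ± 0.37, log2 fold change, SE). These levels overlapped, but its share of the NMDA level was 24.7 and 22.4% in the heterozygous libraries, below the 32.4 to 37.5% of the controls. A share also depends on the other subunits, so it is no separate measure of the Grin2d level. Grin1 made up 30.6% in heterozygous library 1, against 15.3 to 20.6% in controls. Grin3a made up 52.3% in heterozygous library 2, against 34.8 to 39.0% in controls. Grin2a, the Grin2 subunit of mature forebrain (ENSMUSG00000059003; chromosome 16, 9567898 to 9995560, minus strand), was low in all libraries, with 24, 25, 20 and 27 reads in controls 1 to 4 and 68 and 54 reads in heterozygous libraries 1 and 2. That is 0.643, 0.696, 0.442 and 0.604 CPM and 1.6 and 1.1 CPM, and the groups did not overlap. The log2 fold change was 1.18 ± 0.50 (SE; edgeR, adjusted p = 0.850), 1.15 for heterozygous library 1 against control 2 and 0.97 for library 2 against controls 1, 3 and 4. Its unadjusted p was 0.0479 and exceeded 0.05 in 10 of 15 alternatives.

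**Figure D5:**
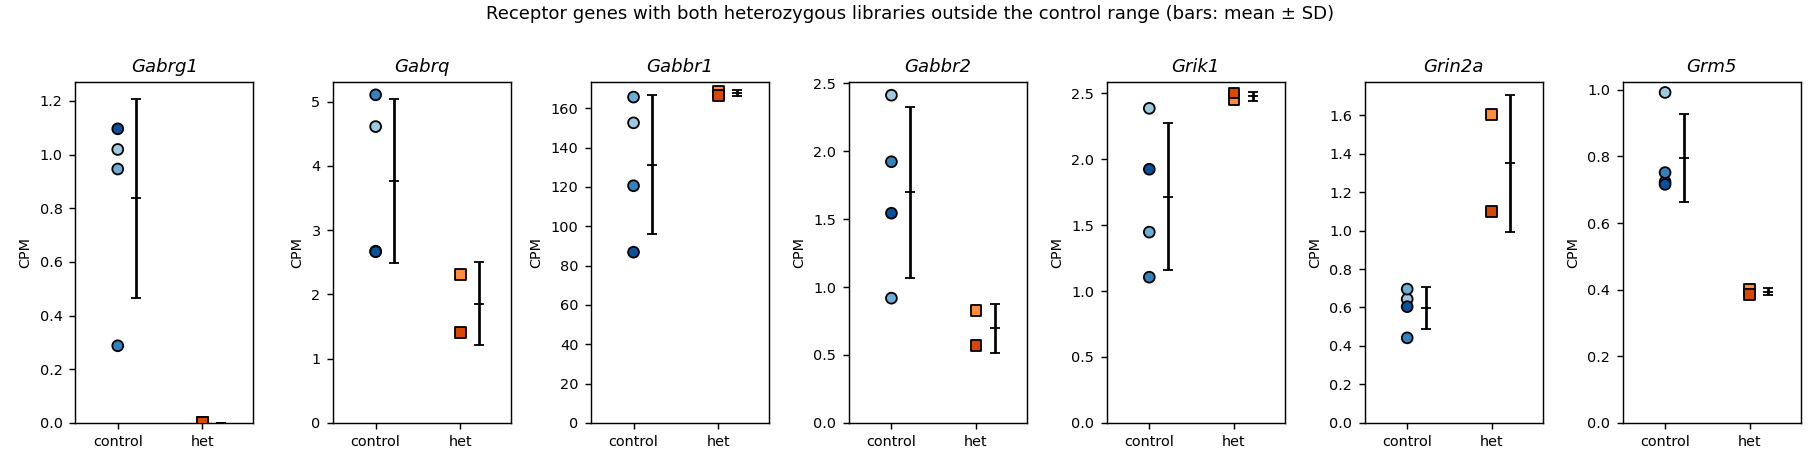
CPM (y axis, from 0) of the 7 receptor genes whose groups did not overlap, with circles for the 4 controls, squares for the 2 heterozygous libraries and bars for mean ± SD. Gabrg1 is at 0 in both heterozygous libraries, Gabrq, Gabbr2 and Grm5 are below the controls, and Gabbr1, Grik1 and Grin2a are above them.

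Of the metabotropic receptors, Grm4, a group III receptor that lowers cyclic AMP, made up 72.4 ± 3.3% of the family level per kb in controls (SD, n = 4) and the group II receptor Grm2 14.2 ± 3.93%. Grm4 stood at 30.4, 18.8, 21.1 and 31.8 CPM in controls and 20.5 and 34.2 CPM in heterozygous cells (0.10 ± 0.30, log2 fold change, SE). Grm2 stood at 5.76, 4.04, 3.07 and 3.13 CPM and 6.15 and 3.4 CPM (0.26 ± 0.38). For Grm4 heterozygous library 2 was the highest of the 6 and for Grm2 heterozygous library 1 was. Grm8, another group III receptor, stood at 1.85, 1.5, 2.25 and 4.23 CPM in controls and 0.377 and 1.73 CPM in heterozygous cells (-1.22 ± 0.69), with control 4 highest and heterozygous library 1 lowest. The Grm8 difference was -0.50 without heterozygous library 1, -2.70 without heterozygous library 2 and -0.097 in the fit that blocked on the code number.

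Grm5, a group I receptor that acts through phospholipase C, was named after its values were seen because both heterozygous libraries lay below the controls. It had 37, 26, 34 and 32 reads in controls 1 to 4 and 17 and 19 reads in heterozygous libraries 1 and 2 (edgeR, log2 fold change -1.01 ± 0.61, adjusted p = 0.920). Grm3 had at most 47 reads and Grm7 at most 22 in a library, and Grm6, a receptor of retinal bipolar cells, had 0.

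Genes that supply, anchor or modify these receptors were read from 7 lists, and 0 of their members passed edgeR. GABA handling genes were above 0 in 6 of 8 (median log2 fold change 0.42), with 2 of the 8 higher at an unadjusted p under 0.05, against 1.75% of all tested genes. Their sum was 253 to 398 CPM in controls and 357 and 622 CPM in heterozygous libraries 1 and 2, so that library 1 lay within the controls. Abat, which breaks down GABA, stood at 139, 120.0, 98.9 and 93.0 CPM in controls and 139.9 and 197 CPM in heterozygous cells (0.58 ± 0.22, SE), with 0.22 for heterozygous library 1 against control 2 and 0.85 for library 2 against controls 1, 3 and 4. Of 7 chloride transport genes 6 were below 0 (median -0.26). Among them Slc12a5, the chloride extruder of mature neurons, stood at 14.2, 10.2, 10.8 and 11.3 CPM and 11.1 and 8.3 CPM (-0.26 ± 0.23), and Slc12a4, a related cotransporter, at 17.5, 19.0, 19.1 and 18.6 CPM and 16.2 and 10.1 CPM (-0.50 ± 0.23), below every control. In the same 2 subsets Slc12a5 differed by 0.12 and -0.53, and Slc12a4 by -0.23 and -0.86.

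The list for anchoring of GABA-A and glycine receptors was a mixed one. Beside anchoring genes it also held Gabarap, Gabarapl1, Gabarapl2, Ubqln1, Trak1, Trak2 and Clptm1. Its genes were above 0 in 12 of 13 (median 0.23) and postsynaptic scaffold genes in 20 of 23 (median 0.18), against 46.1% above 0 over all tested genes. In either list 0 had an unadjusted p under 0.05. Both heterozygous libraries lay above every control for 0 of the 13 and for 1 of the 23, Nlgn1 (4.35%, against 6.17% of all tested genes). Shisa7, an auxiliary GABA-A protein, stood at 37.9, 23.7, 29.3 and 24.7 CPM in controls and 33.9 and 51.5 CPM in heterozygous cells (0.56 ± 0.25, log2 fold change, SE), and Nlgn1, an adhesion protein of excitatory synapses, at 6.17, 2.84, 5.26 and 4.68 CPM and 7.66 and 7.14 CPM (0.64 ± 0.32). AMPA and kainate auxiliary genes, a list that also held Adarb1, Adarb2 and the cerebellin genes Cbln1, Cbln2 and Cbln4, were above 0 in 18 of 27 (median 0.15). For 6 of them, Cbln1 included, both heterozygous libraries lay above every control (22.2%, against 6.17% of all tested genes). Cacng3, an AMPA receptor auxiliary subunit, stood at 5.04, 5.2, 2.48 and 3.07 CPM and 7.64 and 12.7 CPM (1.37 ± 0.37; edgeR, adjusted p = 0.793). Within heterozygous library 1 against control 2, and library 2 against the other controls, the differences were 0.52 and 0.76 for Shisa7, 1.42 and 0.43 for Nlgn1 and 0.55 and 1.87 for Cacng3. Each heterozygous library exceeded every control in the neuron marker sum, but only library 2 did so in the sums of these lists. Library 2 reached 1632 CPM for anchoring, 1470 CPM for scaffold and 761 CPM for auxiliary genes. Library 1 stayed inside the control range each time. Its anchoring sum was 1395 CPM (controls 1247 to 1429), its scaffold sum 1015 CPM (891 to 1315) and its auxiliary sum 620 CPM (542 to 676). The part of neuron content in these lists was not tested.

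Of 9 tested GABA-B auxiliary and effector genes 5 were below 0 (median -0.02). Kctd12b, of the family of GABA-B auxiliary proteins, stood at 9.14, 11.3, 9.17 and 15.7 CPM in controls and 4.74 and 4.5 CPM in heterozygous cells, below every control (-1.29 ± 0.29, log2 fold change, SE; edgeR, adjusted p = 0.793). DESeq2 called it (adjusted p = 0.0306, the lowest of 16 alternatives, of which the highest was 1.0). In the glycine and glutamate handling list 8 of 14 were below 0 (median -0.13). Slc1a3, a glutamate transporter of radial glia, stood at 34.2, 46.7, 45.8 and 34.5 CPM and 27.7 and 20.4 CPM (-0.74 ± 0.23; edgeR, adjusted p = 0.793), below every control. In the 2 subsets Kctd12b differed by -1.24 and -1.32, and Slc1a3 by -0.75 and -0.89.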

How the data were processed

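The authors deposited raw read counts for 38561 Ensembl genes and a table of normalized values (a signal: the count divided by 1 size factor per library, as checked on the deposited values) for 18065 genes. The tools named in the submitters' processing notes are Trim Galore, STAR and HTSeq, with the build mm10. Not given in the sources used here are their versions, the annotation, the strandedness and the settings of the counting. Reads of overlapping or antisense genes therefore cannot be assigned with certainty.

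The members and lists were chosen with earlier results of these data known. Raw counts were tested with edgeR 4.0.16 (R 4.3.3): filterByExpr (16495 genes), TMM factors, robust glmQLFit and glmQLFTest, two-sided, Benjamini-Hochberg adjustment over all tested genes, threshold 0.05. The standard error is the log2 fold change over the square root of F. CPM use the total over tested genes times the TMM factor. For heterozygous library 1 against control 2, values are differences of log2 CPM (prior count 2), with no test. With 4 against 2 samples, an exact permutation test cannot give a two-sided p below 0.0667. Exon length is the union of exons in GENCODE M21 (GRCm38), which matched 36639 IDs. Counts give counting error only, as the labels name no molecular identifiers.

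Printed per library are members with a mean of at least 1 CPM or an unadjusted p under 0.05, except some that are not reported here, though counts and sums include them. Of each companion list the member with the smallest p is named, with Slc12a5 beside them. Alternatives were DESeq2 1.42.0, limma 3.58.1 (voom, and trend on log2 of normalized values plus 1), RLE scaling, other filters, a block for the sample code number, a covariate for Y-linked expression, removal of length and GC trends (loess, span 0.5), each library left out, and the libraries with and without Y-linked reads apart.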

Additional observations from a re-analysis of the deposited data

Results flagged for a closer look

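Of the 26 receptor genes whose values are given by library and the 8 companion genes, Grid1 had a control far from the others: 2.67 CPM in control 2, against 6.53 to 7.24 CPM in the other controls (gap over range 0.846, above Dixon's critical value for 4 samples). Chance flags about 1 in 20 groups.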

How the results depend on the processing

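DESeq2 called 74 genes in all and 1 receptor gene, Gabrg1 (which passed the filter through the controls alone), and also the companion gene Kctd12b. With the code number as a replicate block 11 genes were called and 0 receptor genes. The other alternatives with a test called 0 genes (leaving out a library, 0 in each case). The receptor median log2 fold change of 0.09 became -0.28 with the replicate block and -0.18 among the libraries with Y-linked reads, and ran from -0.18 to 0.22 when a library was left out, lowest without heterozygous library 1. The control SD of the median was 0.23. The cause was not tested. Only the number 70 occurs in both genotypes, so the block rests on control 1 and heterozygous library 2. Their deviations from their group means correlated at 0.41 over 13002 genes. Pairs with different numbers were as close: 0.41 for control 2 with heterozygous library 1, and 0.38 for control 3 with heterozygous library 2. With 2 heterozygous libraries, their deviations are mirror images, so these correlations are not independent. What the number marks is not given in the labels.

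Of the 26 receptor genes given by library, 9 kept their sign in every alternative. The sign of the others and of 1 companion gene, none of them called, turned as follows. With the code number as a replicate block it did so for Gabra3 (-0.18), Gabre (-0.25), Glra2 (-0.74), Glrb (0.34), Gria1 (-0.29), Gria2 (0.23), Grik2 (-0.019), Grin1 (-0.49), Grin3a (-0.28) and Grm2 (-0.76). With Y-linked expression as a covariate it did so for Gabra3 (-0.001), Glra2 (-0.083) and Grik2 (-0.040). With length and GC trends removed it did so for Gria3 (0.032). Among the libraries with Y-linked reads it did so for Gabra3 (-0.13), Gabre (-0.035), Gria2 (0.15), Gria3 (0.35), Grin1 (-0.20) and Grm2 (-0.22). Within the pair without them it did so for Gabrb2 (-0.098), Glra2 (-0.41), Grik2 (-0.22), Grik4 (0.035), Grid1 (0.15), Grin2d (0.12) and Slc12a5 (0.12). Leaving out a library turned the sign of Gabra3 (-0.14 to 0.25), Gabrb2 (-0.049 to 0.35), Glra2 (-0.18 to 0.45), Gria2 (-0.29 to 0.014), Gria3 (-0.59 to 0.33), Grik2 (-0.076 to 0.12), Grik3 (-0.56 to 1.23), Grin1 (-0.22 to 1.20), Grm2 (-0.22 to 0.62) and Grm4 (-0.31 to 0.43), given as the lowest and highest values. Counts not divided by exon length moved the control share of Gria4 to 51.4%, Grik5 to 55.9% and Grin3a to 45.9%, and by over 1.5 times that of Gria2 (10.5 to 21.4%), Grik2 (4.70 to 9.68%), Grin2b (2.43 to 6.10%), Gabra5 (2.19 to 1.11%), Gabrb1 (0.194 to 0.458%) and Gabrg3 (0.246 to 0.495%). Depth limits the genes near the floor of 3 reads, Gabrg1 among them.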
